A study of Mus musculus with 2 samples.

Results

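Long intergenic non-coding RNA (lincRNA) genes with reads in the mouse adrenal gland are described here. Members were chosen by annotated type and by their read counts: the deposited annotation gave them the type lincRNA on chromosomes 1 to 19, and they held at least 3 reads summed over both libraries. Genes whose names start with Snhg, Gas5, H19, Meg3 or Rian were left out. Members numbered 244 of 5202 autosomal lincRNA genes of the annotation, and 718 held at least 1 read. Just inside the limit 49 genes had 3 reads, and just outside it 108 had 2.

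The tissue was adrenal gland of 14-day-old female B6CASTF1/J mice, the F1 cross of a C57BL/6 and a CAST parent, and it was read by long-read RNA sequencing, in which 1 read is meant to cover 1 cDNA molecule. There was 1 group with 2 libraries, biological replicates 1 and 2, and no treatment, genotype contrast or control. The name of the tissue sample speaks of 3 females for replicate 1 and of a single female for replicate 2, while both library descriptions speak of 3, so the 2 libraries may differ in how many animals they hold. Replicate 1 held 1143111 reads and replicate 2 held 991731, of which 1065570 and 946553 fell in annotated genes.

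Markers of the adrenal cortex and of chromaffin cells were high in both libraries, with summed levels in CPM, reads per 1000000 reads in annotated genes, of 53672 and 23963 for 6 cortex genes and 11562 and 4449 CPM for 5 chromaffin genes in replicates 1 and 2. The libraries also differed in other tissues. The 7 hepatocyte markers summed to 688 CPM in replicate 1 and 75584 CPM in replicate 2, and the 5 skeletal muscle markers to 60.1 CPM in replicate 1, where Tnnt3 and Myh1 were at 0 reads, and 1703 CPM in replicate 2. The 4 erythroid markers summed to 11129 and 3553 CPM, and the 3 brown adipocyte markers to 6234 and 7261 CPM. A short list of liver-linked transcripts included no member. Its antisense gene 0610005C13Rik and protein-coding gene 1300017J02Rik had 0 and 1 reads in replicate 1 and 35 and 132 in replicate 2. Gm15441, another antisense gene on it, went the other way with 2 reads in replicate 1 and 0 in replicate 2. The listed 4931408D14Rik was not in the annotation under this name. In bulk tissue, fewer cells of a type and less RNA per cell cannot be told apart.

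LincRNAs are transcribed by RNA polymerase II from genes that lie between protein-coding genes, and most are capped and polyadenylated like mRNAs. Some are spliced and act in the cytoplasm, while others stay unspliced in the nucleus, where Neat1 builds paraspeckles and Malat1 gathers in nuclear speckles. They are as a class less abundant and less efficiently spliced than mRNAs, and many start next to a protein-coding promoter that they share.

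The sequences below show the features that the members' results turn on. Exon junctions are given for 4 spliced members described below, with 25 bases on either side, from the GENCODE M21 transcripts on mm10. Lower case is the upstream exon and capitals are the downstream exon. Both junctions of 1810058I24Rik, in its most read form, remove introns of 7627 and 695 nt, at chr6:35252783-35260409 and chr6:35260464-35261158 on the plus strand. Those of the long form of 1700020I14Rik remove introns of 1824 and 3076 nt, at chr2:119594435-119596258 and chr2:119596512-119599587 on the plus strand. The single introns of Lncbate1 (chr8:108553624-108584155, minus strand) and Lockd (chr6:134929261-134951305, plus strand) are 30532 and 22045 nt long.
1810058I24Rik junction 1: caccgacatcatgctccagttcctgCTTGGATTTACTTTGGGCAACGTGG
1810058I24Rik junction 2: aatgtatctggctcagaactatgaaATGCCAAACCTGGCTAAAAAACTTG
1700020I14Rik junction 1: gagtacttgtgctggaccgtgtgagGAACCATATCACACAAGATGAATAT
1700020I14Rik junction 2: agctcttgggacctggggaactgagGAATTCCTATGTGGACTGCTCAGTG
Lncbate1 junction: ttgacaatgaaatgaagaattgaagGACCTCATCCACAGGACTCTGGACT
Lockd junction: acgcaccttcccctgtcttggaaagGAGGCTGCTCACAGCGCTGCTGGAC

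1700020I14Rik is Oip5os1, also called Cyrano, a spliced lincRNA known to carry a site of near-complete pairing to the microRNA miR-7 and to lower its level. The mature miR-7a-5p (RefSeq, GRCm38.p6, copy at chr7:78888295-78888317, plus strand) is shown with bases 2 to 8, its seed, in capitals. Below it stand the site in the 8300-nt form of 1700020I14Rik (chr2:119602132-119602161, plus strand) and, for comparison, the seed match in its 1381-nt form (chr2:119599942-119599971, plus strand), with the 7 bases that pair to the seed in capitals.
mmu-miR-7a-5p: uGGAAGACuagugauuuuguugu
1700020I14Rik long form: taagaacaacaaaatcaccaatGTCTTCCa
1700020I14Rik short form: gacttcaggttttttttttaatGTCTTCCa

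The site of the long form pairs with 22 of the 23 bases of miR-7a-5p when 2 bases of the lincRNA are skipped, while that of the short form pairs with 12 of 23. On the transcript strand alone, the 7-base match GTCTTCC occurs 2 times in the long form and once in the short one. It occurs in 47.9% of 1869 annotated transcripts of 7000 to 10000 nt and in 13.3% of 25971 of 1000 to 2000 nt, so the seed match alone is common. A match is a description of letters and no measure of binding.

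2900097C17Rik is Norad, an unspliced cytoplasmic lincRNA known for binding Pumilio proteins, which recognise the motif TGTANATA. The stretch from nt 1482 to 1631 of its 4915-nt form (chr2:156391349-156391498, minus strand) holds 2 of its matches, in capitals.
2900097C17Rik window: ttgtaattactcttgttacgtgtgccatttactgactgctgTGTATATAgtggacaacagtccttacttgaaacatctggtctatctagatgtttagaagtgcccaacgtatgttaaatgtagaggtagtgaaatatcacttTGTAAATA

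TGTANATA, searched on the transcript strand with overlaps allowed, occurred 11 times in the 4915-nt form, or 2.24 per kb, and 0 times in the 339-nt form. Of 8905 annotated transcripts of 4000 to 5999 nt, 41.0% held a match, and 3, counting Norad itself, were at least as dense as Norad.

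Gm10076 is a single-exon locus on chromosome 14 that RefSeq types as a pseudogene. Its 383-nt transcript is identical at 381 positions to that of Rpl41, the mRNA of a ribosomal protein on chromosome 10, with substitutions C317T and G424A, counted from 1 at the start of the Rpl41 transcript and with its base first. The stretch around the first (chr14:105681924-105681983, plus strand, and chr10:128548350-128548409, minus strand) is shown with the differing base in capitals.
Gm10076: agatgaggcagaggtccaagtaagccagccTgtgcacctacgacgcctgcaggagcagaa
Rpl41: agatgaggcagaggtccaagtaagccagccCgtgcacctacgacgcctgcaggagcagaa

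By annotation, 2010320M18Rik and Fam120aos start 102 and 270 nt from protein-coding genes that run the other way. Their RefSeq promoter windows (GRCm38.p6, 250 nt before to 50 nt after the start, plus strand) lie at chr8:70776612-70776911 and chr13:48967862-48968161, with each CG in capitals. The windows also hold the annotated starts of the partners, Pik3r2 at position 70776713 and Fam120a at 48968017. The most read Fam120aos model, with 27 reads in replicate 1 and 34 in replicate 2, starts at chr13:48967355. That is before the window shown and across the Fam120a start, so this model overlaps Fam120a.
2010320M18Rik promoter: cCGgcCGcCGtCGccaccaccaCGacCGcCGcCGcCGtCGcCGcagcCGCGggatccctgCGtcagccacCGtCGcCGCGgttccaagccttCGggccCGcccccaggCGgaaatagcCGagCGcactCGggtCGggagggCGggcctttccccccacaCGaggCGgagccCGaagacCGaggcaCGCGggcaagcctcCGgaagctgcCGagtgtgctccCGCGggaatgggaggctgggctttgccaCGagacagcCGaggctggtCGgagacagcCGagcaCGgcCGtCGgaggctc
Fam120aos promoter: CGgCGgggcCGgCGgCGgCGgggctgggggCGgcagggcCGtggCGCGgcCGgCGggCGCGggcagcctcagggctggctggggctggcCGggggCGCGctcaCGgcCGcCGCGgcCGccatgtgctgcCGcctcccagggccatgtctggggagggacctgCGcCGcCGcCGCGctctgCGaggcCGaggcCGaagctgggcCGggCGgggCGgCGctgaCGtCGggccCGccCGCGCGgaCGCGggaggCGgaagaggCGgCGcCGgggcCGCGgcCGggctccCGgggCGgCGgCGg

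The first window holds 43 CG pairs and the second 54, which read the same on both strands. As many as these occur in 2.50% and 0.359% of the 27025 RefSeq promoters.

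Members were sparse. They held 2502 of the gene reads in replicate 1 and 1652 in replicate 2, which is 0.235% (0.226 to 0.244, exact Clopper-Pearson 95% interval) and 0.175% (0.166 to 0.183), or 0.205% ± 0.0426 (SD, n = 2). The share was higher in replicate 1 by Fisher's exact test on reads (two-sided p = 4.11e-21), a test that compares the reads of these libraries and not animals. Its denominator includes reads of other tissues: the 7 hepatocyte markers alone took 688 CPM in replicate 1 and 75584 CPM in replicate 2. The ERCC spike-in reads numbered 26894 in replicate 1 and 15903 in replicate 2, and member reads were not tested against them. The median member had 7 reads over both libraries, against 42 for the 12738 autosomal protein-coding genes with at least 3 reads. Of the members, 215 had reads in both libraries, 20 in replicate 1 alone and 9 in replicate 2 alone. A count of 0 allows up to 3 reads, or 2.82 CPM in replicate 1 and 3.17 CPM in replicate 2, so single-library members cannot be told from members at a low level in both. The leading gene held 8.38% of all member reads, the leading 5 held 23.7% and the leading 25 held 54.6%.

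Neat1, the scaffold of paraspeckles, led with 221 CPM in replicate 1 and 119 CPM in replicate 2. Malat1, its neighbour on chromosome 19 and an RNA of nuclear speckles, had 58.2 and 29.6 CPM. Both nuclear RNAs were thus higher in replicate 1. CPM are not divided by transcript length, since 1 read stands for 1 cDNA. Of the 348 Neat1 reads, 312 were on the single-exon model of 20771 nt, whose ends are the annotated ones, so the lengths of the reads behind it are not known. Only 36 Neat1 reads crossed an intron, and all 90 of Malat1 were on the 6983-nt single-exon model.

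1810058I24Rik came next with 91.0 and 83.5 CPM in replicates 1 and 2. RefSeq lists it as protein-coding, with Stmp1, a small mitochondrial protein, among its synonyms. Its libraries differed little, and 164 of its 176 reads were on the 3-exon form whose junctions are shown above. RefSeq matched 159 members and gave 145 of them the type lncRNA, 8 protein_coding and 6 a pseudogene type. The other 7 members that RefSeq lists as coding had between 3 and 17 summed reads.

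Gm10076, the Rpl41-like locus, had 96.7 CPM in replicate 1 against 67.6 CPM in replicate 2, all unspliced. Rpl41 itself held 1264 and 732 reads, of which 1973 were spliced and 23 unspliced over both libraries. Because the 2 transcripts differ at 2 positions, the assignment of reads to Gm10076 is uncertain.

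A trio on chromosome 17, Gm26917, Gm42418 and AY036118, lies at or beside a ribosomal RNA locus. Gm26917 had 93 and 60 reads, Gm42418 had 83 and 58, and AY036118 had 36 and 41 in replicates 1 and 2. RefSeq calls Gm42418 Rn18s-rs5, a ribosomal RNA pseudogene. Over 923 nt AY036118 is identical to the annotated rRNA CT010467.1, and Gm42418 is identical to its opposite strand over 1244 nt, so reads of these loci cannot be split with certainty. The trio held 8.47% of member reads in replicate 1 and 9.62% in replicate 2, and 0 of its 212 and 159 reads were spliced, with exact 95% upper limits of 1.72% and 2.29%.

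Cyrano (1700020I14Rik) stood at 73.2 CPM in replicate 1 against 65.5 CPM in replicate 2, and 92.9% of its 140 reads were spliced. Models whose sequence holds the miR-7 site took 50 of 78 reads in replicate 1 (64.1%, 52.4 to 74.7) and 35 of 62 in replicate 2 (56.5%, 43.3 to 69.0). These shares did not differ past 0.05 (Fisher's exact test, two-sided p = 0.387). The long and short forms are told apart by the end of the second exon, and the deposited model ends are the annotated ones, so the counts do not show how many reads reached the site.

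Norad (2900097C17Rik) had 47.9 and 47.5 CPM, with 0 spliced reads. Its 4915-nt form took 27 of 51 reads in replicate 1 and 14 of 45 in replicate 2, and the nested 339-nt form, without a Pumilio motif, took the other 24 and 31. The share of the 4915-nt form was 52.9% (38.5 to 67.1) and 31.1% (18.2 to 46.6), with Fisher's exact test p = 0.0394, two-sided and not adjusted. Both forms are single exons that overlap, so this is the split the deposited models give.

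**Figure D1:**
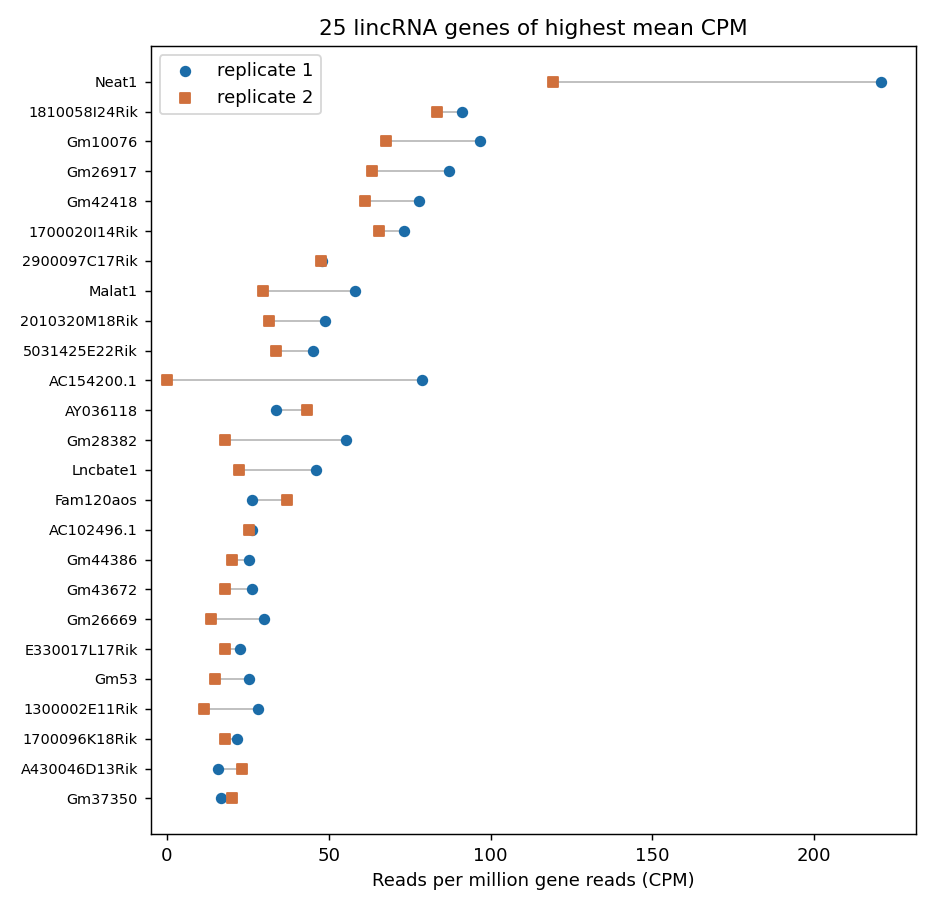
CPM of the 25 members of highest mean CPM in replicate 1 (circles) and replicate 2 (squares), joined by a grey line. Neat1 stood highest in both libraries at 221 and 119 CPM, and AC154200.1 was at 78.8 CPM in replicate 1 and 0 in replicate 2.

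Lncbate1, a lincRNA of brown adipocytes, had 46.0 CPM in replicate 1 against 22.2 CPM in replicate 2, and 50 of its 70 reads joined the 30532-nt intron shown above. Of the 3 brown adipocyte markers, Ucp1, the uncoupling protein that marks brown fat, went the other way with 1517 and 2075 CPM. Cidea did so too with 1857 and 2349 CPM, while Fabp4 was nearly level at 2859.5 and 2837.7 CPM. Gm53 in the Hoxb cluster had 27 and 14 reads, and Lockd, downstream of the cell-cycle inhibitor Cdkn1b, had 20 and 9 while Cdkn1b itself had 1 and 0. All 29 Lockd reads were spliced.

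Of a list of well-known lincRNAs, most had few or no reads. Pvt1, the neighbour of Myc, had 3 reads in replicate 1 and 5 in replicate 2. Bvht, known from cardiac development, had 5 and 6, and Epb41l4aos had 11 and 1. Miat had 1 and 0, Carmn 0 and 1, and Rmst, Pantr1, Lncpint, Hotair and Trp53cor1 had 0 in both libraries, where up to 3 reads each remain possible. Tug1, Airn, Kcnq1ot1, Peg13 and others on the list carry another gene type in the annotation and are not members.

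MicroRNA hosts had few reads. A hairpin lay inside 11 members, on the member's strand in 6 of them, and 14 of the 20 same-strand hairpins were in Mirg, of the imprinted Dlk1-Dio3 region, which had 1 and 2 reads. Mir670hg had 1 and 3 reads, and Mir142hg, which holds a microRNA of blood cells, had 3 and 0. The most read member with a same-strand hairpin was 2900076A07Rik, which holds Mir1839, with 5 and 4 reads. Reads are of the host RNA and say nothing of the mature microRNA. Outside the annotated end of Gm53, the hairpin of Mir196a-1 (chr11:96265164-96265265) lay on the same strand within an intron, chr11:96264846-96266871, of an unannotated Gm53 chain with 2 reads in each library. Its mature sequence (RefSeq, seed in capitals) is shown because miR-196a is known to act on Hox mRNAs.
mmu-miR-196a-5p: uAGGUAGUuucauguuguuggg

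Reads of lincRNA genes were spliced far less often than those of protein-coding genes. Of member reads, 40.2% (38.3 to 42.2) in replicate 1 and 46.1% (43.7 to 48.6) in replicate 2 were on models of 2 or more exons, a mean of 43.2% ± 4.18 (SD, n = 2). Protein-coding genes had 91.1% and 91.9% spliced reads in the same libraries, a mean of 91.5% ± 0.526 (SD, n = 2). Whether spliced reads were the minority depends on the reads and members counted: the members' mean share was 53.6% without reads of Genomic models, 52.6% over members with an annotated multi-exon transcript, and 52.9% with each member of 10 or more reads counted once. The gap between the gene types was many times the spread between the libraries. With 2 values on each side an exact unpaired permutation test cannot go below p = 0.333, and no test was made. Between the libraries the members' spliced share was lower in replicate 1 (Fisher's exact test, two-sided p = 0.0001755), and it stayed lower without AC154200.1, at 41.6% and 46.1% (p = 0.00416). Protein-coding genes were also less spliced in replicate 1, with an odds ratio of replicate 1 over replicate 2 of 0.91, against 0.79 for members.

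Members ranged widely around the pooled share. At least 90% of reads were spliced in 77 members, at most 10% in 72, and the other 95 lay between, with a median over members of 62.0%. Among the most read members at the spliced end were Gm44386, with 46 of 46 reads spliced, 1300002E11Rik with 41 of 41, 1810058I24Rik at 98.3%, Fam120aos at 96.8%, Cyrano at 92.9% and Lncbate1 at 91.4%. Of the most read members with few spliced reads, Neat1 was at 10.3%, and Gm10076, Gm26917, Gm42418 and Norad had 0. The 28 members annotated with single-exon transcripts alone were spliced in 1.58% (0.638 to 3.23) and 0.952% (0.197 to 2.76) of reads. The 216 members with an annotated multi-exon transcript were spliced in 48.5% (46.3 to 50.7) and 56.8% (54.1 to 59.4).

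The gap to protein-coding genes was seen at every depth and was widest among the most read genes. In genes with 3 to 9 summed reads the spliced share was 48.9% and 60.1% for 154 members, against 71.5% and 77.9% for 2328 protein-coding genes. With 10 to 19 reads it was 60.9% and 63.6% for 49 members, against 76.5% and 81.8% for 1761. With 20 to 348 reads it was 33.1% and 37.0% for 41 members, against 90.2% and 91.9% for 7605. At or below 10% spliced were 48.8% of the members in that last range and 2.26% of its protein-coding genes. Without the ribosomal RNA trio and Gm10076, all members together were spliced in 46.0% of reads in replicate 1 and 53.3% in replicate 2.

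**Figure D2:**
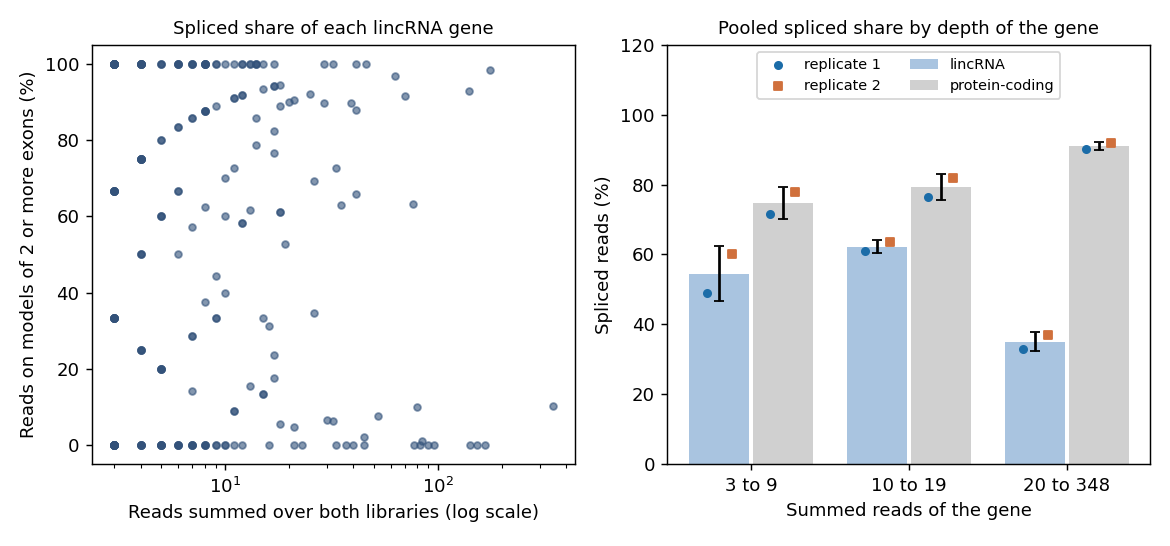
Left, the share of reads on models of 2 or more exons for each of 244 members against its summed reads (log scale). Right, the pooled spliced share of lincRNA and protein-coding genes by summed reads of the gene, as means with SD over 2 libraries and with replicate 1 (circles) and replicate 2 (squares), where members with 20 to 348 reads stood at 33.1% and 37.0%.

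Members on the opposite strand of a coding exon were less spliced. In 37 members an annotated exon overlapped a protein-coding exon of the other strand, and 25.2% (20.2 to 30.7) and 29.3% (22.7 to 36.7) of their reads were spliced in replicates 1 and 2, against 42.1% and 48.1% in the other 207. Examples are Gm26669, opposite the mRNA-decay factor Zfp36l1, with 32 and 13 reads, and Gm26699, opposite Luc7l2, a splicing factor, with 20 and 13, all unspliced and all of Genomic class. BLAST found 41 members with at least 95% identity over at least 200 nt to a protein-coding or rRNA transcript, 15 in the same sense and 26 in the reverse sense. How the strand of a read was set is not given in the sources used here. Reads of members opposite a coding exon thus cannot be told with certainty from reads of their partners. Whether reads of the other members with a BLAST match were placed rightly was not tested.

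The class that TALON, a program for annotating long reads, gives each transcript model differed from that of coding genes. Known models match an annotated transcript, ISM models hold part of its introns, NIC models combine annotated splice sites in new ways, NNC models use at least 1 unannotated splice site, and Genomic models overlap a gene and match none of these classes. Known models took 56.1% (54.1 to 58.1) and 56.8% (54.4 to 59.2) of member reads, against 76.1% and 78.3% for protein-coding genes. Genomic models took 24.6% (22.9 to 26.3) and 20.6% (18.7 to 22.7), against 5.19% and 3.99%. NNC models took 8.43% and 10.5%, against 3.24% and 3.02%, while ISM took 6.79% and 8.29%, against 10.9% and 10.7%, and NIC 4.08% and 3.75%, against 4.58% and 4.01%.

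Relative to all coding genes pooled, member reads were thus shifted to Genomic and NNC models in both libraries. The class shares were not matched for depth, and protein-coding genes of few reads were less spliced. With 3 to 9 summed reads 71.5% and 77.9% of their reads were spliced, against 91.1% and 91.9% over all. How far depth enters the difference in classes was not tested. Between the libraries the members' Genomic share was higher in replicate 1 (Fisher's exact test, adjusted over 5 classes p = 0.0165), and without AC154200.1 it was 22.0% and 20.6% (unadjusted p = 0.331). Protein-coding genes also had the higher Genomic share in replicate 1, so this direction was not particular to members. The odds ratio of replicate 1 over replicate 2 was 1.32 for protein-coding genes and 1.25 for members. The members' other 4 classes had adjusted p between 0.0714 and 0.655. Of Known reads, 540 of 1404 in replicate 1 and 398 of 939 in replicate 2 were spliced, so unspliced reads were not confined to Genomic models. Classes were given in each library separately: of 126 intron chains read in both libraries, 9 had different classes in them. In A430046D13Rik, for example, the same 4-intron chain was Genomic in replicate 1 with 7 reads and ISM in replicate 2 with 10.

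**Figure D3:**
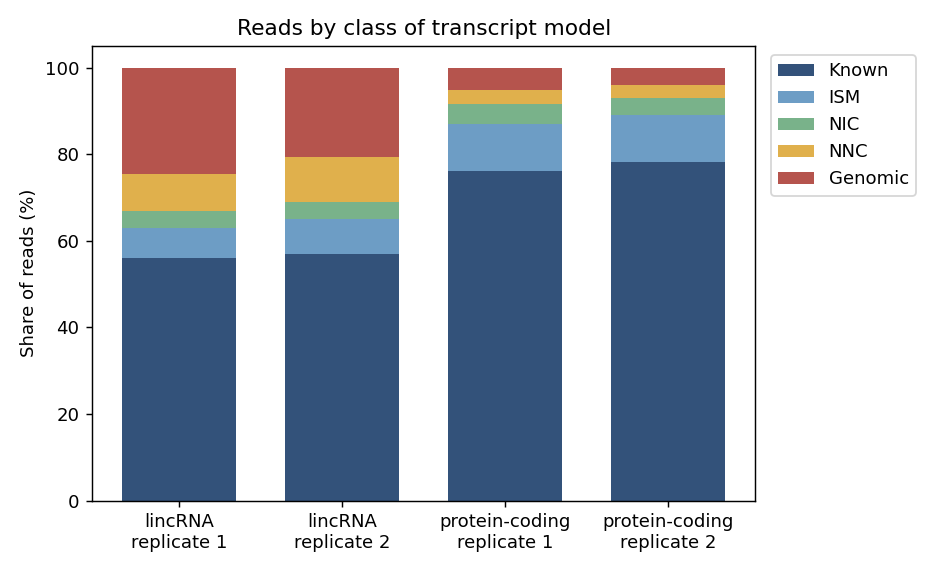
Share of reads by class of transcript model for 244 lincRNA genes and for protein-coding genes in replicates 1 and 2, as stacked bars that sum to 100%. Genomic models took 24.6% and 20.6% of lincRNA reads, against 5.19% and 3.99% of protein-coding reads.

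Unannotated splicing was spread thinly over many members. NIC and NNC models gave 335 intron chains in 128 members, of which 256 had a single read and 40 chains in 31 members were read in both libraries. The most read was a chain of 2 introns in Gm28382 (introns between chr1:91483322 and 91483698), with 22 reads in replicate 1 and 4 in replicate 2. A 2-intron chain of AC153155.2 had 7 and 8 reads, and a 3-intron chain of Gm39090 had 12 and 2. These are read counts of single chains, and no test was made on them.

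Lppos, on the opposite strand of Lpp, had a pair of chains whose single introns share their lower coordinate (chr16:24393108) and differ by 5 nt at the other end. The chain that ends at 24393358 had 7 reads in replicate 1 and 4 in replicate 2, and the one that ends at 24393353 had 1 and 9. Further chains read in both libraries were in 2810414N06Rik with 3 and 6 reads, A530076I17Rik with 5 and 4, and A430046D13Rik with 4 and 4.

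Expressed lincRNA genes lay nearer to coding genes than the other 4958 autosomal lincRNA genes. The median distance to the nearest protein-coding start was 19120 nt for members and 66084 nt for the others, and a start lay within 1 kb for 24.2% of members and 5.61% of the others. A divergent partner, on the opposite strand and facing away, lay within 1 kb of 42 members, which is 17.2% against 4.11%. Spans overlapped a protein-coding gene on the opposite strand in 20.1% of members against 7.08%. The longest annotated transcript had a median of 1694 nt in members and 928 nt in the others. These are descriptions of annotated positions with no test, since neighbouring genes are not independent.

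Most divergent partners had more reads than the lincRNA. The partner held more in 33 of the 42 pairs, and 1 partner had 0 reads, with medians of 8 reads for members and 45 for partners. These medians are near the 7 of all members and the 42 of all protein-coding genes with at least 3 reads. The difference is thus not particular to divergent pairs. 2010320M18Rik had 52 and 30 reads beside 83 and 73 of Pik3r2, a regulatory subunit of PI3 kinase, while Fam120aos had 28 and 35 beside 42 and 48 of Fam120a. Of the Fam120aos reads, 27 and 34 were on a model that runs across the annotated Fam120a start. 5031425E22Rik had 48 and 32 beside 29 and 10 of Kmt2e, and is a pair in which the lincRNA was the more read. Divergent members were spliced in 31.2% (26.8 to 35.9) of reads in replicate 1 and 50.8% (44.5 to 57.0) in replicate 2, and in 38.7% and 50.8% without AC154200.1. Among 125 members with a RefSeq promoter window, the median was 10 CG pairs, with 26 in the 26 divergent ones and 8 in the other 99, against 7 in all RefSeq promoters. These windows lie at RefSeq starts, while distances and the divergent label use GENCODE starts. The 2 starts can be far apart, by 54967 nt in Gm31718 and by 2027 nt in the divergent Mm2pr, so some windows are not at the start described. The letters TATAAA, on the gene's strand, were in 12.8% of the members' windows and 14.1% of all.

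**Figure D4:**
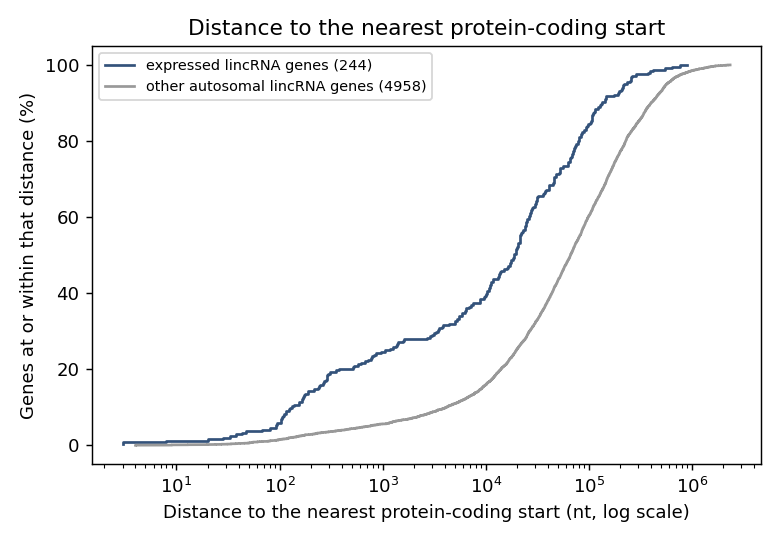
Cumulative share of genes by distance from their start to the nearest protein-coding start (log scale), for 244 expressed lincRNA genes and 4958 other autosomal lincRNA genes. The expressed genes lay nearer over most of the range, with 24.2% against 5.61% within 1 kb.

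The 2 libraries were compared gene by gene, by an exact conditional binomial test given the totals of gene reads, for the 41 members and 9211 genes with at least 20 summed reads. At an adjusted p under 0.05, 8 members differed, 7 higher and 1 lower in replicate 1. That is 19.5% of members tested, 17.1% higher and 2.44% lower, while 26.4% of all genes tested were called, 17.9% higher and 8.58% lower. Among 8117 genes with no more reads than Neat1, 1705 were called, 1092 higher and 613 lower. The members' share of higher calls was near the background. The median log2 ratio of replicate 1 over replicate 2 was 0.41 over members and 0.28 over all genes. It fell to 0.16 and 0.03 with edgeR's TMM factors, and was -0.18 and -0.31 when scaled by the ERCC spike-in reads, so the direction of the members' median depends on the scaling.

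The scaling also decided which members were called. With TMM factors or DESeq2 size factors 4 of 41 were called, 3 higher and 1 lower, and those 4 were Neat1, Gm28382, AC154200.1 and Gm30262. With ERCC scaling 5 were called, AC154200.1 and Gm28382 higher and Gm30262, AY036118 and Fam120aos lower. Over all genes, the split of 1646 higher and 790 lower calls became 643 and 1093 with TMM factors, 656 and 1075 with size factors, and 170 and 2071 with ERCC reads. When a coefficient of variation of 0.2 between libraries was assumed in edgeR's exact test, 2 members were called, AC154200.1 and Gm30262.

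AC154200.1 had 84 reads in replicate 1 and 0 in replicate 2, at least 24.9-fold higher against a floor of 3 reads in replicate 2 (adjusted p = 2.69e-22, exact conditional binomial test). Of these, 83 were on 1 single-exon Genomic model of 280 nt at chr17:17345177-17345456, which overlaps 0 nt of annotated exons of AC154200.1 or Riok2. The gene starts 103 nt from Riok2, a ribosome-assembly kinase with 45 and 19 reads. The signal is thus from 1 place within the gene span and 1 library.

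Gm30262 was the opposite case, with a single read in replicate 1 against 25 in replicate 2, at a ratio of 0.0355 (0.000865 to 0.217, exact counting interval; adjusted p = 1.91e-06, exact test). Of its 26 reads, 17 were on models of 10 nt or less, so the model ends there cannot be the reads' own. Both of the members farthest apart between the libraries thus rest on unusual models.

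Neat1 was higher in replicate 1 by 0.88 ± 0.16 on the log2 scale (counting SE, adjusted p = 6.07e-07, exact test), and by 0.63 with TMM factors and 0.30 with ERCC scaling, where it was not called. Gm28382, with 59 and 17 reads, was higher by 1.59 ± 0.39 (adjusted p = 0.000129, exact test). Malat1 (0.96 ± 0.33), Lncbate1 (1.03 ± 0.37), 1300002E11Rik (1.24 ± 0.50) and AC106834.1 (1.73 ± 0.69) were called with adjusted p of 0.0145, 0.0245, 0.0445 and 0.0333 in the exact test, and with neither TMM factors, size factors nor ERCC scaling.

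Some of these genes share sequence or direction with others. 1300002E11Rik has a transcript that matches the start of Map3k13 on the same strand over 236 nt, so reads within that stretch are uncertain. All 41 of its reads were spliced, with 19 in replicate 1 and 6 in replicate 2 on an annotated 3-exon form. Map3k13 had 5 and 6 reads. Frmd8, the nearest coding start to Neat1, had 107 reads in replicate 1 and 45 in replicate 2, and so also stood higher in replicate 1. That direction was common, with a log2 ratio above 0 in 6297 of the 9211 genes tested. The hepatocyte and muscle markers were lower in replicate 1 and the cortex, chromaffin and erythroid markers higher, and their part in these differences was not tested.

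**Figure D5:**
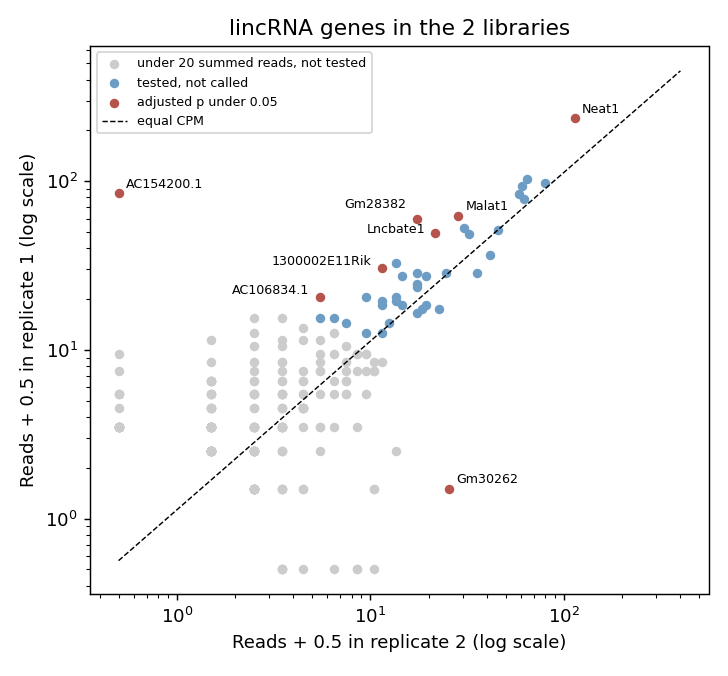
Reads plus 0.5 of each member in replicate 1 against replicate 2, both on log scales, with the 8 members called at an adjusted p under 0.05 in red and the line of equal CPM dashed. AC154200.1 (84 and 0 reads) and Gm30262 (1 and 25 reads) lie farthest from the line.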

How the data were processed

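Read counts per transcript model and a transcript annotation for each library are, per the file headers, on mm10 and built on GENCODE M21, with the classes of TALON. The authors deposited whole-read counts, not scaled for depth or length, and did not pool the replicates. The aligner, TALON version and strand handling were not given in the sources used here.

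Counts were summed per gene over models of every class without spike-ins, and CPM were computed over reads in annotated genes. A read was counted as spliced when its model has 2 or more exons. Where a gene had at least 20 summed reads, the libraries were compared by a two-sided exact conditional binomial test with Benjamini-Hochberg adjustment over all of them. The test was also run on simulated counts with planted differences and counting error alone. That simulation held no further variation between libraries, so it cannot show how the test behaves where there is some. Log2 ratios are of replicate 1 over replicate 2 with 0.5 reads added. Shares have exact Clopper-Pearson 95% intervals. Reads carry no molecular identifiers, so intervals, floors and tests cover counting error only and compare 2 libraries, not animals, and nothing in the labels separates animals from library preparation. Depth was 1065570 and 946553 gene reads.

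Members were chosen by their summed reads, and members and gene lists were chosen with earlier results of these data known. Genes named are the 25 of highest mean CPM, the called members with the largest ratios, the listed genes, the 5 most read with over 90% and with under 20% spliced reads, and the 8 most read unannotated chains in both libraries, with further genes named for their position or reads after their values were seen. Gene positions are those of GENCODE M21. Python 3.11.15, SciPy 1.17.1, BLAST 2.17.0, edgeR 4.0.16 and DESeq2 1.42.0 were used. Scalings, read minimums, classes, overlaps and single libraries were varied as alternatives.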

Additional observations from a re-analysis of the deposited data

How the results depend on the processing

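There is 1 group of 2 libraries, so no samples could be paired. Members and protein-coding genes were measured in the same libraries, and that pairing was not used in a test. The spliced share of members, 43.2%, was 49.7% without the 5 most read members, 53.6% without Genomic reads, 52.9% as the mean over members with 10 or more reads, 52.6% over members with an annotated multi-exon transcript and 49.7% without the ribosomal RNA trio and Gm10076, an alternative chosen after seeing the data; with a single library it was 40.2% to 46.1%. The Known share, 56.5%, was 61.4% with a minimum of 10 reads, 58.1% with reads in both libraries, 53.5% without Neat1, 44.4% without the 5 most read members, 58.5% without same-strand and 63.4% without any overlap with protein-coding genes; with a single library it was 56.1% to 56.8%. The member share of gene reads, 0.205%, was 0.156% without the 5 most read members and 0.175% to 0.235% with a single library. The 244 members became 718 with a minimum of 1 read, 90 with 10, and 132 to 178 with a single library. Among members, the 8 calls between libraries became 4 with TMM factors, 4 with DESeq2 size factors, 5 with ERCC scaling, 14 with a minimum of 10 reads, 5 with 50, and 2 where edgeR assumed 0.2 as the coefficient of variation. Over all genes the 2436 calls became 513 under that last setting and stayed within 1.5 times elsewhere. The minimum changed which genes were tested, and the cause of the other shifts was not tested. The difference in Genomic share between the libraries, 3.94 percentage points, was 1.32 without AC154200.1, an alternative chosen after seeing the data. With ERCC scaling AY036118 (-0.94) and Fam120aos (-1.07) were called lower in replicate 1, and without Genomic reads A430046D13Rik was called lower (-1.60). At a median of 7 reads per member, depth limits every single-gene statement to the most read members.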
